A study of Mus musculus with 14 samples.

Results

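The genes described here encode 10 proteins that join epithelial cells to each other or sit on their surface: the adhesion molecule Epcam, the claudins Cldn3, Cldn4 and Cldn7, occludin (Ocln), desmoplakin (Dsp), the protease inhibitors Spint1 and Spint2, the membrane protease St14 and the mucin Muc1. They were taken by gene symbol from the annotation of the array platform, which named 9 of them among 8251 genes, through 11 probe sets. A probe set is a group of oligonucleotides that report 1 transcript. St14 was not analysed here. Of the 9 genes, 8 passed a filter on dim signals that kept 6397 genes in all, and Spint2 did not.

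MMTV-neu mice carry the neu oncogene under a viral promoter (MMTV) that is active in mammary epithelium, and their mammary tissue was compared with wild-type gland on 14 arrays, 1 RNA sample per array. The groups were 5 MMTV-neu mammary tumors (numbered 22, 24, 26, 50 and 52), 2 further MMTV-neu tumors kept apart as set B (80 and 81), 4 MMTV-neu glands lying next to a tumor and described as preneoplastic (23, 25, 49 and 51), and 3 wild-type glands (40, 41 and 42). Set B served to see whether changes of the first tumors recurred. Adjacent gland was compared with wild-type gland because it is described as preneoplastic. These glands already had a tumor beside them, so the comparison cannot by itself show what precedes a tumor. RNA of 5 mice was pooled for each of the wild-type samples. Pool 40 came from mice of 31 weeks with 87.5% FVB and 12.5% CF-1 background, and pools 41 and 42 from mice of 41 weeks with 97% FVB and 3% CF-1. Ages and strains of the MMTV-neu animals are not given in the sources used here, nor whether tumors and adjacent glands were taken from separate animals. The p-values therefore measure the spread between these samples only, and a pool of 5 mice varies less than single animals would.

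Tight junctions seal the space between neighbouring epithelial cells, with claudins and occludin as their membrane-spanning strands, and desmosomes tie the keratin filaments of one cell to those of the next through desmoplakin. Epcam is an epithelial adhesion molecule that is known to bind claudin 7 at the lateral membrane. Spint1 and Spint2 are membrane-bound Kunitz-type inhibitors of trypsin-like surface proteases, matriptase (the product of St14) among them, and matriptase and its inhibitors are known to control the turnover of Epcam and claudin 7. Muc1 is a mucin of the apical surface of glandular epithelium. Most of the genes described here are typical of the luminal cells that line mammary ducts and alveoli.

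The start regions of 4 of these genes are shown because Epcam, Cldn4 and Spint1 were called higher in both tumor sets than in wild-type gland, and Muc1 in neither. Each runs from 250 bases before to 50 bases after the annotated start of the gene, 5′ to 3′ on the strand of the gene, as RefSeq gives it for GRCm38.p6. Epcam lies at chr17:87635729-87636028 (plus strand), Cldn4 at chr5:134946885-134947184 (minus strand), Spint1 at chr2:119237110-119237409 (plus strand) and Muc1 at chr3:89228806-89229105 (plus strand). Capitals mark matches, on either strand, to 4 motifs: AACNGGTT, a core bound by Grainyhead-like factors, CAGGTG, the E2 box bound by Snail and Zeb repressors, GGGCGG, the GC box, and TATAAA, the TATA box.
Epcam: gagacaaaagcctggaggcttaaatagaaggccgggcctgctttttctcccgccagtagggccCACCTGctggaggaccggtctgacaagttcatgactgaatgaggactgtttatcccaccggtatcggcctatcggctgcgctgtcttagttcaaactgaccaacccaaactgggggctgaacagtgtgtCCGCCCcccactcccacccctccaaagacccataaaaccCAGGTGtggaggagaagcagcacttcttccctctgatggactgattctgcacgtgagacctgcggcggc
Cldn4: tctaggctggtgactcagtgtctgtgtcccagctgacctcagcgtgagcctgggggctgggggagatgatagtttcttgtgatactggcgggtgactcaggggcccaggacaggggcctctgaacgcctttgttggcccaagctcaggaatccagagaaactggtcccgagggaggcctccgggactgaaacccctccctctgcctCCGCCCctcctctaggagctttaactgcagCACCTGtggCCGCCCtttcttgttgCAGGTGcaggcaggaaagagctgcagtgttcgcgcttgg
Spint1: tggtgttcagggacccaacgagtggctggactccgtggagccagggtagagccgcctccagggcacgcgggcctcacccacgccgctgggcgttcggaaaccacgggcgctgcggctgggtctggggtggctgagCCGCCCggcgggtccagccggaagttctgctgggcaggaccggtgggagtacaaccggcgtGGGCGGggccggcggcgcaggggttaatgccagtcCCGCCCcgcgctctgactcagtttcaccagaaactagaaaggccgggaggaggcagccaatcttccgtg
Muc1: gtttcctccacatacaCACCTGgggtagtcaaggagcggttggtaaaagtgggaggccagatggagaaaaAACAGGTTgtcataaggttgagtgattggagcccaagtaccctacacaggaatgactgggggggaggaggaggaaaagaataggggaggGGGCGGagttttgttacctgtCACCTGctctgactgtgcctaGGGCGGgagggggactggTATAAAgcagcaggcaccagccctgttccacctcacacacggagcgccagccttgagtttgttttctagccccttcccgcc
No base of these windows lay in matches to more than 1 motif. Of the 9 genes with a window, 7 held CAGGTG, against 20% of 27025 mouse windows of the same length, and 8 held GGGCGG, against 35.9%. Spint1 had no CAGGTG in its window. Muc1 was the 1 gene of the 9 with AACNGGTT (2.01% of all windows) and the 1 with TATAAA (14.2% of all windows), whose first base lay at position -31 relative to the start. The windows were 57% G or C for Epcam, 61% for Cldn4, 69.7% for Spint1 and 55.7% for Muc1, beside a median of 52.7% over all windows. These counts use the first annotated start of each gene. Cldn7 and Ocln have a second start, and the window of the second start of Cldn7 held 2 matches to CAGGTG and 1 to GGGCGG, where that of its first start held none. These matches describe letters only.

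Epcam was high in every tumor. Its intensities were 15181, 11087, 12306, 9776 and 14445 in the tumors (arrays 22, 24, 26, 50 and 52) and 10822 and 11087 in set B, 5541, 3717, 5462 and 2482 in the adjacent glands (23, 25, 49 and 51) and 2710, 1622 and 1827 in the wild-type pools (40, 41 and 42). All 7 tumors lay above all 7 other arrays, while adjacent gland 51 lay below wild-type pool 40. The geometric means were 12390 in tumors, 10950 in set B, 4088 in adjacent gland and 2003 in wild-type gland, with SDs of 0.26, 0.025, 0.55 and 0.39 on the log2 scale (n = 5, 2, 4 and 3). On that scale the differences from wild-type gland in limma, a linear model fitted to all probe sets with p-values adjusted over all of them, were 2.63 ± 0.26 for tumors and 2.45 ± 0.32 for set B (estimate ± SE, adjusted p = 1.74e-06 and 6.17e-05), and tumors exceeded adjacent gland by 1.60 ± 0.24 (adjusted p = 0.000202). The difference of 1.03 ± 0.27 between adjacent and wild-type gland did not pass the threshold (adjusted p = 0.0734). Without adjacent gland 51 it was 1.27 (adjusted p = 0.0131). That was the 1 call gained with 7 arrays left out in turn, and adjusted p otherwise reached 0.276.

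**Figure D1:**
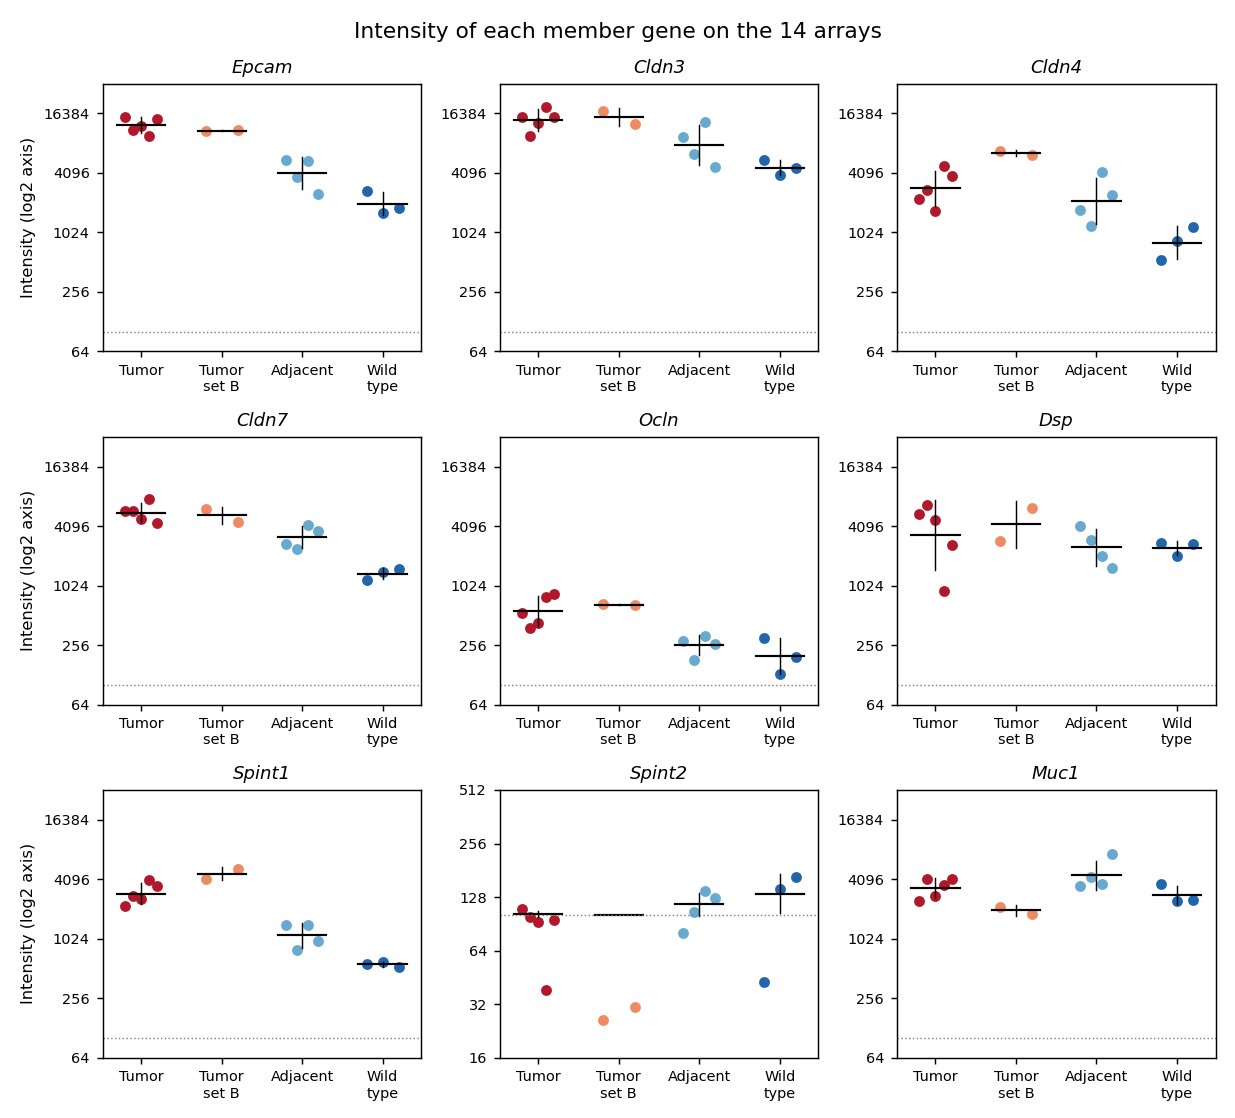
Intensity on a log2 axis (vertical) of the 9 genes on each of the 14 arrays, with tumors, set B tumors, adjacent glands and wild-type pools side by side. Points are arrays, horizontal bars geometric means, vertical lines 1 SD on the log2 scale after values under the dotted floor of 101 were set to it, and the Spint2 panel has a lower range. For Epcam, Cldn7, Ocln and Spint1 all 7 tumors lie above all 7 other arrays, for Dsp the tumors spread 7.42-fold, and for Muc1 both set B tumors lie below every other array while the other groups overlap.

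Cldn3, a claudin that seals the junction, was higher in both tumor sets than in wild-type gland. Tumors had 15220, 9581, 13125, 18911 and 15140, set B tumors 17367 and 12871, adjacent glands 9495, 6343, 13455 and 4698, and wild-type pools 5510, 3934 and 4571. Every tumor lay above every wild-type pool, and adjacent gland 49 reached the tumors' range. Tumors exceeded wild-type gland by 1.60 ± 0.29 (adjusted p = 0.000638) and set B by 1.69 ± 0.36 (adjusted p = 0.00334), or 3.04-fold and 3.23-fold, the call of set B being lost without set B tumor 80 (adjusted p = 0.0508). Against adjacent gland, tumors were 0.84 ± 0.27 higher (adjusted p = 0.0465), but this call was lost when any 1 of 7 of the 9 arrays was left out, with adjusted p up to 0.175. A second, dimmer probe set of Cldn3, of a type that may also bind related sequences, showed 1.68 ± 0.26 for tumors (adjusted p = 0.000165) and 0.92 ± 0.33 for set B, which did not pass (adjusted p = 0.0541). Adjacent gland differed from wild-type gland by 0.76 ± 0.31 on the first probe set (adjusted p = 0.255). On the second probe set the difference was 0.92 ± 0.27 (adjusted p = 0.113), and every adjacent gland lay above every wild-type pool.

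Cldn4, whose gene neighbours Cldn3 on chromosome 5, a claudin that also limits the passage of ions, varied among the tumors and adjacent glands, and in both the arrays of lot 2001815 (tumors 22, 24 and 26, glands 23 and 25) had the lower values. The tumors gave 2224, 2759, 1688, 4790 and 3789, and the set B tumors 6844 and 6158. The adjacent glands gave 1720, 1185, 4168 and 2470, and the wild-type pools 538, 830 and 1158. All MMTV-neu samples, tumor or adjacent, lay above all wild-type pools, tumors and adjacent glands overlapped, and both set B tumors lay above all 5 first tumors. The rise over wild-type gland was 1.83 ± 0.39 in tumors (adjusted p = 0.00207) and 3.02 ± 0.48 in set B (adjusted p = 0.000349), 3.55-fold and 8.09-fold. Between tumors and adjacent gland the difference was 0.41 ± 0.36 with a 95% interval of -0.34 to 1.17 (adjusted p = 0.526). Adjacent gland was 1.41 ± 0.41 above wild-type gland, which missed the threshold (adjusted p = 0.10). Without adjacent gland 25 it was 1.70 (adjusted p = 0.0473). With each of the 7 arrays left out in turn, this was the 1 call gained, and adjusted p otherwise reached 0.309.

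Cldn7, the claudin that binds Epcam, was higher in tumors than in adjacent gland and in adjacent than in wild-type gland. Its intensities were 5784, 5804, 4857, 7749 and 4390 in tumors, 6036 and 4556 in set B, 2725, 2417, 4215 and 3675 in adjacent glands and 1163, 1405 and 1510 in wild-type pools. All tumors lay above all adjacent glands, and all adjacent glands above all wild-type pools. Tumors were 2.05 ± 0.22 above wild-type gland (4.15-fold, adjusted p = 5.19e-06), set B 1.96 ± 0.28 (adjusted p = 0.000127), and tumors 0.82 ± 0.21 above adjacent gland (adjusted p = 0.0123). The adjacent glands were 1.23 ± 0.23 above wild-type gland (2.35-fold, adjusted p = 0.0169). That call did not hold without adjacent gland 49 (1.10, adjusted p = 0.0571) or without wild-type pool 40, 41 or 42 (1.13, 1.26 and 1.31, adjusted p = 0.0744, 0.0712 and 0.0731). The probe set is of the type that may bind related sequences.

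Ocln, a membrane protein of the tight junction, was dim. The tumors had 538, 380, 428, 777 and 835, set B 668 and 650, the adjacent glands 279, 183, 320 and 261 and the wild-type pools 303, 132 and 194. It passed the filter through 4 tumors and both set B tumors alone, so that a difference had to follow, and its values are given as a description of size: 1.51 ± 0.37 for tumors over wild-type gland (adjusted p = 0.00618), 1.73 ± 0.47 for set B (adjusted p = 0.0132) and 1.14 ± 0.34 for tumors over adjacent gland (adjusted p = 0.0341). Every tumor lay above every other array. The last of these calls was lost on leaving out any 1 of 6 of the 9 arrays (adjusted p up to 0.0861), and that of set B on leaving out any 1 of 3 of the 5 (up to 0.0843). With the floor raised to the 40th percentile, the differences from wild-type gland were 0.57 in tumors and 0.80 in set B and no longer passed (adjusted p = 0.0697 and 0.0522). Adjacent gland differed from wild-type gland by 0.37 ± 0.39 (adjusted p = 0.693).

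Dsp did not pass in any comparison and varied among the tumors. Tumors gave 5397, 6717, 4686, 905 and 2650, set B 2890 and 6291, adjacent glands 4127, 2992, 2036 and 1532 and wild-type pools 2730, 2034 and 2672. The lowest tumor, 50, lay 7.42-fold below the highest, 24, and below every wild-type pool. Tumors 22, 24 and 26 and adjacent glands 23 and 25, all of array lot 2001815, lay above the other tumors and adjacent glands of their own groups, and lot and tumor cannot be told apart here. The SD among tumors was 1.16 on the log2 scale, against 0.24 among the wild-type pools. Tumors differed from wild-type gland by 0.44 ± 0.52 with a 95% interval of -0.66 to 1.53 (adjusted p = 0.554), an interval that holds changes in either direction. Set B was 0.80 ± 0.64 above wild-type gland and adjacent gland 0.02 ± 0.54 (adjusted p = 0.42 and 0.994). A second probe set of Dsp was at the floor on all 14 arrays and was not tested.

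Spint1 was the least variable of the 9 genes among the wild-type pools, with 571, 599 and 527 (SD 0.093 on the log2 scale). The tumors had 2186, 2780, 2594, 4011 and 3482, the set B tumors 4151 and 5153, and the adjacent glands 1420, 782, 1395 and 978. Tumors, adjacent glands and wild-type pools did not overlap at any point, and set B lay above all 5 first tumors. Spint1 rose by 2.38 ± 0.24 in tumors and 3.03 ± 0.30 in set B over wild-type gland (5.21-fold and 8.19-fold, adjusted p = 2.78e-06 and 4.37e-06), and tumors exceeded adjacent gland by 1.41 ± 0.22 (adjusted p = 0.000408). For adjacent against wild-type gland the difference was 0.97 ± 0.25 (adjusted p = 0.0734), and 1.14 without adjacent gland 25 (adjusted p = 0.0336). Of the 7 arrays left out in turn, no other gave a call, and adjusted p reached 0.269. Spint2, its relative, was near or under the floor: it gave 110, 98.3, 92.8, 38.4 and 94.6 in tumors, 26 and 30.9 in set B, 80.7, 105, 138 and 126 in adjacent glands and 42.6, 142 and 166 in wild-type pools. No fold is given for Spint2 because 4 of 5 tumors and both set B tumors were at the floor, and in a fit without the filter it did not pass in any comparison (adjusted p = 0.0915 for tumors against wild-type gland).

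Muc1 did not rise with Epcam, Cldn3, Cldn4, Cldn7, Ocln and Spint1. Its intensities were 2456, 4111, 2760, 3606 and 4127 in tumors, 2164 and 1802 in set B, 3480, 4298, 3664 and 7401 in adjacent glands and 3636, 2474 and 2534 in wild-type pools. The highest value was that of adjacent gland 51, and both set B tumors lay below every other array. None of the differences passed the threshold: 0.24 ± 0.26 for tumors over wild-type gland (95% interval -0.31 to 0.78, adjusted p = 0.519), -0.52 ± 0.32 for set B, 0.66 ± 0.27 for adjacent gland and -0.43 ± 0.24 for tumors over adjacent gland (adjusted p = 0.274, 0.264 and 0.276).

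Of the 9 genes on the array, 6 were called higher in tumors than in wild-type gland (Epcam, Cldn3, Cldn4, Cldn7, Ocln and Spint1), none lower, Dsp and Muc1 did not pass, and Spint2 was not tested. Over all genes tested, 15.8% were called higher and 14.7% lower, and in the fit without the filter, where all 9 were tested, the same count of 6 stood beside 10.5% higher. In set B the same 6 were called higher and none lower (11.3% and 12.4% of all genes). In adjacent gland 1 gene, Cldn7, was called higher and none lower (0.782% and 0.469% of all genes). Against adjacent gland, 5 were higher in tumors and none lower (5.75% and 9.29% of all genes), Cldn4 being the member of the 6 that did not pass. The filtered counts include Ocln, which passed through tumors alone. Without the filter, 6 of the 9 were called higher in set B than in wild-type gland (7.51% of all genes), 1 in adjacent gland (0.242%) and 4 in tumors against adjacent gland (3.64%). Every tumor lay above every wild-type pool for those 6 (18.8% of all genes), every adjacent gland above every wild-type pool for Cldn4, Cldn7 and Spint1 (7.49%), and every tumor above every adjacent gland for Epcam, Cldn7, Ocln and Spint1 (5.28%). Both set B tumors lay above every wild-type pool for 7 genes, those 6 and Dsp (29.7% of all genes), and below for Muc1 (28.1%). With both sets pooled, all 7 tumors lay above the 7 other arrays for Epcam, Cldn7, Ocln and Spint1 (3.77% of all genes) and above the wild-type pools for the same 6 (15%). The non-overlap counts of tumors were also taken over genes that passed the filter, and they too include Ocln. These comparisons share the wild-type pools or the tumors, so their counts are not independent of each other.

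**Figure D2:**
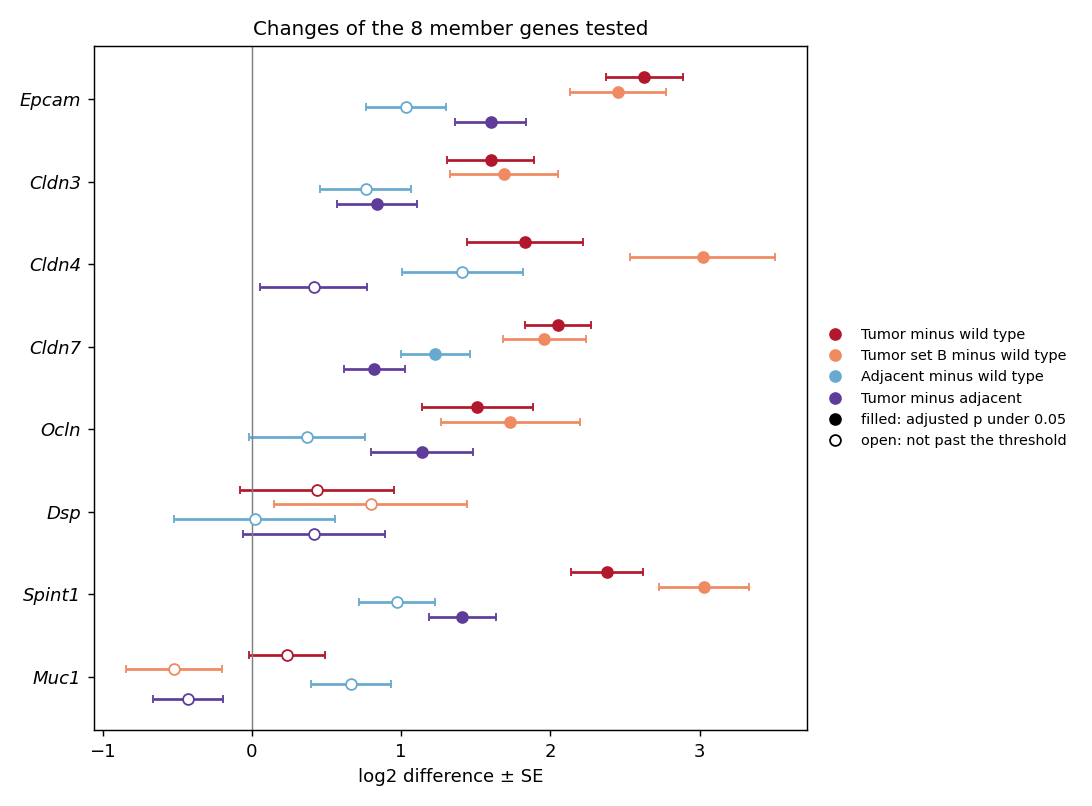
Log2 difference ± SE (horizontal) of the 8 genes tested, in tumors, set B and adjacent gland relative to wild-type gland and of tumors relative to adjacent gland, with filled points for an adjusted p under 0.05. Epcam, Cldn3, Cldn4, Cldn7, Ocln and Spint1 are filled in both tumor sets, Cldn7 is the 1 filled point for adjacent gland, and Dsp and Muc1 have none.

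The 2 tumor sets were compared directly. None of the 8 genes passed the threshold, and neither did any other of the 6397 genes (0% called). The nearest were Cldn4, 1.19 ± 0.44 higher in set B (95% interval 0.25 to 2.13, adjusted p = 0.394), Spint1, 0.65 ± 0.28 higher (0.063 to 1.24, adjusted p = 0.427) and Muc1, 0.76 ± 0.30 lower (difference -0.76, -1.38 to -0.13, adjusted p = 0.401). In each of these 3 the set B tumors lay outside the range of the first tumors. For 6.35% of all genes both set B tumors lay above the 5 first tumors, and for 9.82% below. For Epcam, Cldn3 and Cldn7 the intervals of the difference were -0.80 to 0.45, -0.62 to 0.80 and -0.64 to 0.45. The second probe set of Cldn3 was lower in both set B tumors than in all first tumors, without passing (difference -0.77, 95% interval -1.40 to -0.13, adjusted p = 0.405), so the 2 probe sets of Cldn3 disagree here. The set B arrays formed a lot of their own, so lot and tumor set cannot be told apart.

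The arrays came from 5 lots, and lots were spread unevenly over the groups. Tumors 22, 24 and 26 shared lot 2001815 with 2 adjacent glands (23 and 25), and adjacent glands 49 and 51 shared lot 2004907 with pool 40. Tumors and wild-type gland shared no lot. A fit with lot as a fixed block therefore joins them through the adjacent glands, and its wild-type side is pool 40 alone, the pool of 31 weeks and 12.5% CF-1. With lot as a fixed block, Cldn4, Cldn7 and Spint1 kept their calls in tumors against wild-type gland (3.19, 2.85 and 2.28, adjusted p = 0.00346, 0.00199 and 0.0182). Epcam, Cldn3 and Ocln kept their direction but not their calls (1.93, 1.21 and 0.90, adjusted p = 0.0618, 0.369 and 0.535). Tumors 50 and 52 carry lot number 2004097, which differs from 2004907 in the order of its digits, and with these taken as 1 lot Epcam passed (2.08, adjusted p = 0.00357) while Cldn3 and Ocln did not (1.51 and 1.27, adjusted p = 0.0559 and 0.111). Within lot 2001815, tumors exceeded adjacent gland by 1.49 for Epcam, 1.09 for Cldn7 and 1.25 for Spint1 (adjusted p = 0.0398, 0.0447 and 0.109), and by 0.68 for Cldn3 and 0.97 for Ocln (adjusted p = 0.294 and 0.29).

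Cldn4 and Cldn7 in adjacent gland differed with the treatment of lot. In lot 2004907, adjacent glands 49 and 51 stood 2.58 above wild-type pool 40 for Cldn4 and 1.76 for Cldn7, larger than the differences over all arrays, though this fit of 3 arrays called no gene (adjusted p = 0.59 and 0.57). With lot as a fixed block the estimates are the same 2 differences from pool 40 alone, and they passed with the spread taken from all arrays (adjusted p = 0.0109 and 0.0307), which assumes that 1 pool varies like the other samples. With the 2 similar lot numbers taken as 1, Cldn4 passed (2.52, adjusted p = 0.0146) and Cldn7 did not (1.62, adjusted p = 0.057). For Epcam the difference within the lot was 0.44, for Cldn3 0.53, for Spint1 1.03 and for Muc1 0.52. For Ocln and Dsp its sign was negative (-0.069 and -0.63). When arrays were centred on their medians, Cldn7 no longer passed in adjacent gland (1.06, adjusted p = 0.0935). That centring moved the median difference of all probe sets between adjacent and wild-type gland to -0.099, against 0.068 in the values as deposited, and turned 62 probe sets higher and 39 lower into 31 higher and 57 lower.

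The samples also differed in their mix of tissues. Summed intensities of 8 adipocyte markers were 4325 to 9616 in tumors, 5190 to 6166 in set B, 88660 to 155800 in adjacent glands and 180300 to 261700 in wild-type pools. For 7 basal and myoepithelial markers the sums were 2037 to 4681 in tumors, 2955 to 3040 in set B, 11210 to 22710 in adjacent glands and 16460 to 19630 in wild-type pools. Acta2 and Myh11 were the brightest of these in wild-type pools (8539 to 9516 and 4284 to 7012). Krt17 did not fall with the sum (515 to 1329 in tumors, 663 to 697 in set B, 446 to 650 in wild-type pools). Krt5 and Krt14 were dim in all groups. For 8 fibroblast markers the sums were 12810 to 35910 in tumors, 15730 to 19420 in set B, 99200 to 180100 in adjacent glands and 122900 to 151900 in wild-type pools. The sum of the 5 luminal markers moved less: 39090 to 67470 in tumors, 29620 to 50910 in set B, 32260 to 52550 in adjacent glands and 33950 to 35530 in wild-type pools. Of the 6 epidermal markers, which would report skin, the sums were 2171 to 2922 in tumors, 2056 to 2494 in set B, 2014 to 3601 in adjacent glands and 2048 to 2468 in wild-type pools. The part of these tissues in the differences above was not tested. In bulk RNA, more cells of a type and more RNA per cell cannot be told apart. The log2 ratio of the 3′ to the 5′ actin control, which grows as RNA degrades, was 0.078 to 0.76 in tumors, 0.14 to 0.21 in set B, 0.38 to 1.52 in adjacent glands and 0.90 to 1.51 in wild-type pools, and its part in the differences above was not tested. The same ratio for the Gapdh control was 1.48 in wild-type pool 42 and at most 0.43 on every other array.

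The luminal markers themselves did not move as a block. Krt8 and Krt18, the keratin pair of simple epithelia, rose in tumors over wild-type gland by 0.82 ± 0.21 and 1.26 ± 0.31 (adjusted p = 0.00887 and 0.00555). Krt19, another keratin of simple epithelia, gave 24.6 to 1275 in tumors, with 3 of 5 at the floor, 7550 to 14165 in adjacent glands and 9961 to 12728 in wild-type pools (adjusted p = 5.95e-06 for tumors against wild-type gland). Krt7, also a luminal keratin, differed by -0.41 ± 0.63 in tumors and -0.50 ± 0.79 in set B without passing (adjusted p = 0.657 and 0.714). Cdh1, the cadherin of epithelial adherens junctions, gave 1516 to 2918 in tumors, 1368 and 1467 in set B, 1377 to 4096 in adjacent glands and 1268 to 1632 in wild-type pools, and the difference of 0.67 ± 0.31 in tumors did not pass (adjusted p = 0.119).

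To set the junction genes against an epithelial yardstick, the mean log2 intensity of Krt8 and Krt18 was subtracted on each array. These are the 2 luminal keratins that rose in tumors over wild-type gland. Values on this scale depend on that choice, and Krt7 and Krt19 were not tried as a yardstick. Against wild-type gland, Krt8 and Krt18 did not pass in set B (0.595 and 1.03, adjusted p = 0.125 and 0.0611). Neither passed in adjacent gland (0.31 and 0.53, adjusted p = 0.544 and 0.457). In tumors against adjacent gland they did not pass either (0.51 and 0.72, adjusted p = 0.102 and 0.103). Relative to these keratins, Epcam, Cldn7 and Spint1 remained higher in tumors than in wild-type gland, by 1.59 ± 0.30, 1.02 ± 0.33 and 1.34 ± 0.34 (adjusted p = 0.00019, 0.0158 and 0.00248), which makes 3 of the 9 genes, beside 1.84% of all genes called higher and 46.4% lower. Cldn7 did not pass without wild-type pool 40 (0.88, adjusted p = 0.0823) or with Krt18 alone as the yardstick (0.80, adjusted p = 0.0928). Cldn3, Cldn4 and Ocln no longer passed (0.57, 0.79 and 0.47, adjusted p = 0.105, 0.0891 and 0.415). With Krt8 alone as the yardstick, Cldn3 and Cldn4 did pass (0.78 and 1.01, adjusted p = 0.0239 and 0.0359). Dsp and Muc1 had negative differences of -0.60 and -0.80 (adjusted p = 0.372 and 0.0767), and with Krt18 alone Muc1 passed as lower (-1.02, adjusted p = 0.042). On the same scale the median over all probe sets tested was -0.87.

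In set B, Epcam, Cldn4, Cldn7 and Spint1 were higher than in wild-type gland relative to the keratins (1.64, 2.20, 1.14 and 2.22, adjusted p = 0.00257, 0.00124, 0.0479 and 0.000352, beside 1.91% of all genes), and Muc1 was lower by 1.34 ± 0.46 (difference -1.34, adjusted p = 0.0361, beside 22.6% of all genes called lower). The call of Cldn7 was lost on leaving out any of the 5 arrays (adjusted p up to 0.152) or with Krt18 alone (0.92, adjusted p = 0.162), and that of Muc1 with Krt8 alone (-1.12, adjusted p = 0.0791) or on leaving out set B tumor 80 (-1.10, adjusted p = 0.309) or wild-type pool 40, 41 or 42 (-1.18, -1.37 and -1.45, adjusted p = 0.115, 0.0768 and 0.0545). Against adjacent gland, Epcam stayed higher in tumors (0.98 ± 0.28, adjusted p = 0.0151, beside 0.75% of all genes called higher) and Muc1 was lower (-1.04 ± 0.34, adjusted p = 0.0328, beside 17.7% called lower). Without adjacent gland 51 both missed the threshold (0.82 and -0.72, adjusted p = 0.0799 and 0.197), and Muc1 was lost on leaving out 4 further arrays. Epcam also missed it with Krt18 alone (0.88, adjusted p = 0.0742) and Muc1 with Krt8 alone (-0.94, adjusted p = 0.0526). No member passed for adjacent against wild-type gland, where 0.125% of all genes were called higher. The largest difference there was that of Cldn4, 0.99 ± 0.40 (adjusted p = 0.241).

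**Figure D3:**
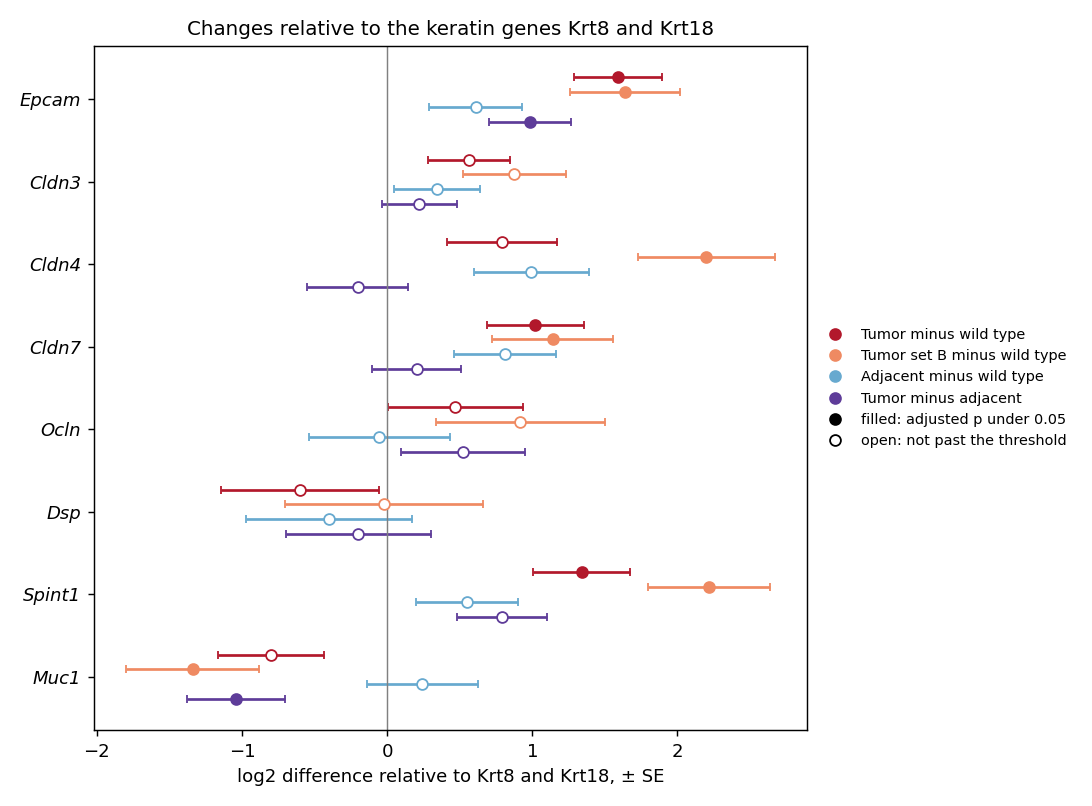
Log2 difference ± SE (horizontal) of the 8 genes tested after the mean of Krt8 and Krt18 was subtracted on each array, for the same 4 comparisons, with filled points for an adjusted p under 0.05. Epcam, Cldn7 and Spint1 are filled for both tumor sets against wild-type gland, Cldn4 for set B, and Muc1 is filled on the negative side for set B and for tumors against adjacent gland.

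Other genes of the same structures were taken from lists, and each count called higher or lower in tumors stands beside 15.8% and 14.7% of all genes. Of 6 other claudins on the array, 4 were tested. Cldn1, a claudin of many epithelia, rose in tumors, with 587 to 1374 in tumors, against 242 to 343 in wild-type pools (1.62 ± 0.37, adjusted p = 0.00325), and Cldn5, the claudin of endothelium, fell in tumors, with 4 of 5 tumors at the floor, against 1595 to 2413 in wild-type pools (log2 difference -4.20 ± 0.45, adjusted p = 4.28e-06). Cldn5 is itself part of the sum of 8 endothelial markers, which was 3513 to 4408 in tumors and 13730 to 16830 in wild-type pools. Of the others, Pecam1 overlapped (635 to 1124 in tumors, 807 to 989 in wild-type pools), as did Kdr. The rest lay lower in every tumor than in every wild-type pool. The median of the 4 was 0.90, beside 0.13 over all genes tested.

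Of 11 tight junction scaffold and polarity genes, all tested, 2 rose in tumors and none fell, a share of higher calls near that over all genes. F11r, the junctional adhesion molecule A, was 1.10 ± 0.18 higher (adjusted p = 0.000244) and the polarity protein Crb3 0.96 ± 0.23 (adjusted p = 0.00506), and the median of the 11 was 0.41. Tjp1, chosen after its values were seen, which encodes the scaffold ZO-1 under claudins and occludin, had a difference of -0.36 ± 0.23 (adjusted p = 0.263). Crb3 was also 0.95 ± 0.24 higher in adjacent gland without passing (adjusted p = 0.068).

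Among other desmosomal genes, of 9 tested, 4 rose in tumors and none fell, with a median of 0.52. The cadherins Dsc2 and Dsg2 rose by 3.10 ± 0.43 and 2.42 ± 0.20 (adjusted p = 5.3e-05 and 2.62e-07) and the membrane protein Perp by 1.83 ± 0.20 (adjusted p = 5.27e-06). Dsg2 had 3378 to 4036 in tumors, 3588 and 3831 in set B, 1915 to 2345 in adjacent glands and 509 to 986 in wild-type pools, with no overlap between tumors, adjacent glands and wild-type pools. In adjacent gland Dsg2 rose by 1.60 ± 0.21 (adjusted p = 0.00288), a call that lot as a fixed block ended (1.04, adjusted p = 0.182). The Dsc2 probe set is of the type that may bind related sequences.

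Adherens junction genes showed small differences: of 7 tested, Ctnnb1, which encodes beta-catenin, rose by 0.61 ± 0.19 in tumors (adjusted p = 0.0258) and Vcl, which encodes vinculin and is also abundant in muscle, fell by 0.71 ± 0.17 (difference -0.71, adjusted p = 0.00401), with a median of 0.24. The call of Ctnnb1 was lost on leaving out tumor 26 or 52 or pool 40 or 42 (adjusted p up to 0.113). It was also lost in 4 of 11 other settings, arrays centred on their medians and lot as a fixed block among them. The sum of 8 skeletal muscle markers moved the same way as Vcl, with 4888 to 12950 in tumors and 60310 to 111500 in wild-type pools. Of these markers, Ckm went the other way (450 to 985 in tumors, 68.8 to 405 in wild-type pools) and Mylpf overlapped. The part of muscle in the fall of Vcl was not tested. Among surface proteases, their substrates and inhibitors, 13 were tested, of which 3 rose and 4 fell in tumors, with a median of 0.089. Plat, the tissue-type plasminogen activator, fell in tumors, with 259 to 942 in tumors, against 3194 to 3885 in wild-type pools (-2.46 ± 0.39, adjusted p = 0.000204). Tfpi, another Kunitz-type inhibitor, fell by 1.65 ± 0.45 (difference -1.65, adjusted p = 0.0111, 1 tumor at the floor), and the receptor Mst1r by 1.37 ± 0.48 (difference -1.37, adjusted p = 0.0418). The call of Mst1r was lost on leaving out tumor 50 or 52 or any of the 3 pools (adjusted p up to 0.109), and that of Tfpi without pool 42 (adjusted p = 0.0591). Prss8, or prostasin, a membrane protease that acts with matriptase, was 0.83 ± 0.23 higher in tumors (adjusted p = 0.0115) and 0.95 ± 0.24 higher in adjacent gland, where it did not pass (adjusted p = 0.0621).

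Of 6 other surface mucins and membrane glycoproteins tested, 4 rose in tumors and none fell, with a median of 1.04: Ceacam1 by 1.52 ± 0.42, Cd9 by 1.17 ± 0.19, Cd24a by 1.06 ± 0.22 and Prom1, chosen after its values were seen, by 1.02 ± 0.31 (adjusted p = 0.0121, 0.000224, 0.00179 and 0.0202). The call of Ceacam1 was lost without pool 42 (1.22, adjusted p = 0.08). In adjacent gland none of the 6 passed, Cd24a being 0.80 ± 0.23 higher (adjusted p = 0.103).

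Of 11 tested regulators of epithelial adhesion genes, 3 rose and 6 fell in tumors, with a median of -1.35. Twist1, a repressor of epithelial genes that fibroblasts also express, gave 61.7 to 90.3 in tumors and 31.1 and 89.9 in set B, all at the floor, against 883 to 1479 in adjacent glands and 1408 to 2332 in wild-type pools, at least 17.1-fold lower in tumors than in wild-type gland (adjusted p = 6.12e-08). Klf4, a factor of differentiated epithelia that also occurs in vessels and stroma, fell by 2.47 ± 0.32 (difference -2.47, adjusted p = 2.98e-05). The epithelial ETS factor Ehf had 1170 to 2877 in tumors, 1680 and 1948 in set B, 635 to 1310 in adjacent glands and 237 to 462 in wild-type pools. Its rise of 1.49 ± 0.33 in adjacent gland had an adjusted p of 0.0421. That call was lost on leaving out any 1 of 4 of the 7 arrays (up to 0.233). It was also lost in 9 of 11 other settings. Among these were arrays centred on their medians (1.32, adjusted p = 0.103) and lot as a fixed block. Chosen after their values were seen, Zeb1 and Snai2, repressors that bind E2 boxes, were lower in tumors (-2.14 ± 0.30 and -1.97 ± 0.29, adjusted p = 6.99e-05 and 9.11e-05), and the epithelial splicing factor Esrp1 was higher (1.65 ± 0.27, adjusted p = 0.000281). Twist1, Zeb1 and Snai2 fell together with the fibroblast markers given above, whose part in it was not tested. With lot as a fixed block, 5 of the 18 genes that the naming rule took from the lists in tumors against wild-type gland kept their calls: Dsg2, Perp, Ehf, Klf4 and Twist1.

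**Figure D4:**
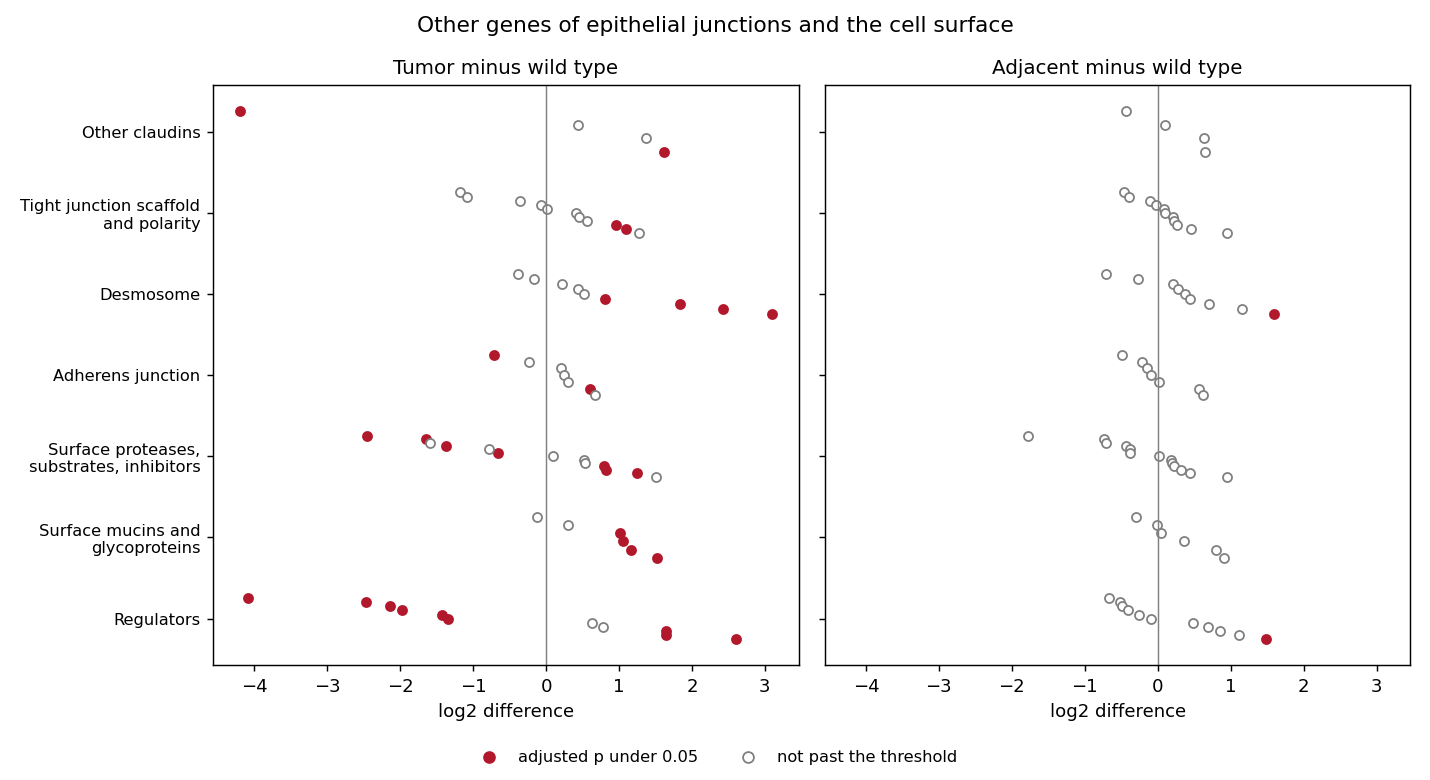
Log2 difference (horizontal, the same scale in both panels) of each tested gene of 7 lists in tumors (left) and adjacent gland (right) against wild-type gland, with filled points for an adjusted p under 0.05. In tumors the tight junction scaffold and polarity, desmosomal and surface glycoprotein lists hold filled points on the positive side alone. The regulators hold 6 on the negative and 3 on the positive side, while for adjacent gland Dsg2 and Ehf are the 2 filled points.

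Likeness of profile was measured as the root mean square difference of log2 values over the 14 arrays after each gene was centred on its mean, against 6396 other genes. For each member the nearest other member was taken. It was Ocln for Cldn3 and Cldn3 for Ocln (0.37), and Cldn3 for Cldn7 (0.44). Epcam and Spint1 were nearest to each other (0.46), and for Cldn4 the nearest member was Cldn7 (0.56). Ocln stood at place 41 among the genes most like Cldn3, Spint1 at place 35 for Epcam and Cldn7 at place 8 for Cldn4. For Dsp and Muc1 the nearest members were farther off, Cldn3 (1.01, place 4568) and Cldn7 (0.98, place 5384). Over the whole table the genes most like each were Slain1 and Actn4 for Epcam (0.22 and 0.23), Erbb3 and Crybg1 for Cldn3 (0.25 and 0.28), Ergic1 and Rab3d for Cldn4 (0.46 and 0.51) and Sox4 and Litaf for Cldn7 (0.28 and 0.33). For Ocln they were Rab17 and Atp6ap2 (0.29 and 0.32), for Dsp Scd2 and Ficd (0.49 and 0.50), for Spint1 Cmas and Esyt3 (0.32 and 0.34) and for Muc1 Pim1 and Slc1a4 (both 0.34). These are descriptions over arrays that share groups and lots.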

How the data were processed

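Expression was measured in 14 mouse mammary RNA samples on 1-color oligonucleotide arrays. The table that the authors deposited holds 1 linear intensity for each of 12488 probe sets on each array. Which software made these intensities: not given in the sources used here. Trimmed means (2% off either tail) were 1500.67 to 1500.9 and medians 543.7 to 784.1, so the values were taken as already scaled to a common mean and were not normalized again. Precision is limited by the number of arrays.

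Intensities under 101.42 (the 20th percentile of all values) were set to that floor before the log2 step. The filter left out 66 control probe sets and all others above the 40th percentile of their array on fewer than 3 arrays, leaving 8616. The platform annotation named 1 gene for 10855 probe sets, several for 396 (not named) and none for 1237. Of the 10855, 10839 were matched by gene number and took the symbol listed under that number. Where a gene had several passing probe sets, that of highest mean log2 stood for it. Differences between the 4 groups were fitted over all arrays together with limma 3.58.1 in R 4.3.3 (lmFit, then eBayes with trend; residual degrees of freedom 10, prior 5.75). Two-sided p-values were adjusted by Benjamini-Hochberg over all probe sets of a comparison, with 0.05 as the threshold of a call. Log2 differences are given ± SE. The fit was tested on simulated data. For the comparison relative to keratins, the mean log2 value of Krt8 and Krt18 was subtracted from every probe set of an array before the same fit.

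The members, the gene lists, the motifs and the yardstick were chosen with earlier results of these data known. Genes of the lists were named by a rule: up to 3 called in tumors and 2 in adjacent gland against wild-type gland with the largest change, or, failing any call, the 1 of smallest p, plus the 2 genes most like each member. The keratins and Cdh1 are given as epithelial markers, and other names outside the rule are marked as chosen after their values were seen. Alternatives were the floor, the scaling, the filter, the trend, array lot, the groups in the fit, each array left out, and, added after seeing the data, set B counted among the tumors.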

Additional observations from a re-analysis of the deposited data

How the results depend on the processing

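Over all alternatives, 1291 log2 differences kept their direction and side of the threshold, 117 lost a call, 13 gained one and 31 changed sign. The 6 member genes called higher in tumors than in wild-type gland were 3 with lot as a fixed block (360 probe sets called), 4 with the 2 similar lot numbers merged, 5 with the floor at the 40th percentile, and 6 with set B counted among the tumors, an alternative chosen after seeing the data. They were also 6 with centred or quantile-normalized arrays, without the filter and with lot as a random block. Probe sets called in that comparison numbered 2574, and 921 with the 2 similar lot numbers taken as 1 and lot as a fixed block. Leaving out 1 array gave 6 members and 1774 to 2512 probe sets.

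For adjacent against wild-type gland (1 member, 101 probe sets), members called were 0 with arrays centred on their medians, 2 with lot as a fixed block, 0 within lot 2004907 and 0 with only the 2 groups in the fit. Probe sets called were 53 without the filter, 56 with lot as a fixed block, 26 with the lot numbers merged, 0 within the lot and 28 with only the 2 groups. Leaving out 1 array gave 0 to 3 members and 14 to 200 probe sets. For tumors against adjacent gland (5 members, 1239 probe sets), members were 3 with the floor at the 40th percentile, 3 with lot as a fixed block (597 probe sets), 2 within lot 2001815 (209 probe sets) and 3 with only the 2 groups. Leaving out 1 array gave 3 to 5 members and 878 to 1379 probe sets. Set B against wild-type gland kept 4 to 6 members and 1053 to 1664 probe sets on leaving out an array. Set B against the first tumors called 2 probe sets with the higher floor, 1 without the filter and 0 to 3 on leaving out an array, against 0 otherwise, and its contrasts could not be fitted with lot as a fixed block. Arrays centred on their medians moved the median of all probe sets in that comparison to 0.10, against -0.058.

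Relative to the keratins, Krt8 alone gave 5 members higher in tumors than in wild-type gland (3 with both), 2 higher and 0 lower in tumors than in adjacent gland, and 0 lower in set B. Krt18 alone gave 1 member lower in tumors than in wild-type gland, 0 higher in tumors than in adjacent gland, and 17 probe sets for adjacent against wild-type gland (42 with both). Leaving out 1 array gave 2 to 3 members higher and 0 to 1 lower (2623 to 4192 probe sets) for tumors against wild-type gland, 0 to 206 probe sets for adjacent against wild-type gland, 0 to 1 higher and 0 to 1 lower (892 to 2045) for tumors against adjacent gland, and 3 higher and 0 to 1 lower (736 to 2237) for set B.

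The sign turned for differences that were never called. Dsp gave -0.59 in tumors against wild-type gland with the lots merged. In adjacent against wild-type gland, Dsp gave -0.15 with centred arrays, -0.17 with lot as a random block, -0.63 as a fixed block and within the lot, -0.86 with the lots merged, and -0.22 to 0.25 on leaving out an array. In the same comparison Ocln gave -0.069 and Cldn1 -0.039 with lot as a fixed block and within the lot. Set B minus tumors gave 0.072 for Cldn7 with centred arrays, and on leaving out an array -0.30 to 0.11 for Cldn7, -0.13 to 0.31 for Cldn3 and -0.20 to 0.92 for Dsp. Relative to the keratins, adjacent gland gave 0.059 for Ocln with Krt8 alone, and on leaving out an array -0.28 to 0.23 for Ocln and -0.079 to 0.49 for Muc1. On the same scale Dsp gave -0.54 to 0.28 for tumors against adjacent gland on leaving out an array, and for set B against wild-type gland 0.20 with Krt8 alone and -0.95 to 0.91 on leaving out an array. The cause was not tested in any of these.

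No paired analysis was possible because the replicate numbers in the labels are not shared between groups. The numbers of tumors and adjacent glands follow each other, but no label ties a gland to a tumor. Small groups, 2 set B tumors and 3 pools above all, limit which differences pass, and dim genes such as Ocln and Spint2 lie close to the floor.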
